A study of Homo sapiens with 2 samples.

Results

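The genes described here are 9 myosin heavy chains that cells other than muscle use: MYH9 and MYH10 of class II, MYO1C and MYO1E of class I, MYO6, MYO9A and MYO9B of class IX, MYO10 and MYO18A. They were taken by symbol from a table of 25556 genes, and all 9 were listed in it once. RNA that came down in an immunoprecipitation (IP) from Huh-7, a long-established human hepatoma cell line, was sequenced (RIP-seq), as was RNA of the whole lysate, the input. There was 1 IP library and 1 input library, both of cells labelled WT and untreated, and 90% of the lysate went into the IP and 10% into the input. The series is titled for the splicing factor SRSF7 and its design text names an anti-SRSF7 antibody, whereas the sample protocol describes an anti-YTHDF2 antibody used on poly(A) RNA, and the treatment label of the IP reads SPSF7. The libraries are therefore called the IP and the input, with no statement of which protein was precipitated. The members were chosen by gene name with their IP and input RPKM and their peaks in view, so the ratios and peaks below describe them and test nothing, and with 1 library per group no difference has a replicate check.

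Myosins are motor proteins that move along or pull on actin filaments, with a motor head that hydrolyses ATP, a neck that binds light chains and a tail that differs between classes. The class II heavy chains form bipolar filaments that contract the actin cortex and the cytokinetic ring, while the other classes link membranes, cargo or signalling domains to actin. In liver cells non-muscle myosin II acts at the cortex, at the bile canaliculus and in cell division. SRSF7 binds pre-mRNA and mRNA and acts in splicing and mRNA export, and YTHDF2 binds m6A-modified mRNA and promotes its decay.

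Gene reads numbered 5897293 in the IP and 2782045 in the input, recovered as whole reads from the deposited RPKM (reads scaled to the exon length of the gene and to the depth of the library). Among genes with 1 to 20 reads, 77.3% of the read counts were even in either library, which happens when each mate is counted, so the 95% intervals below, which take reads as independent and cover counting error only, are likely too narrow. All 10 hepatocyte markers were present, with AFP at 1613 RPKM in the IP and 2814 RPKM in the input. Genes of other tissues were also present, in both libraries: 8 of 10 skeletal and cardiac muscle markers were listed and summed to 122 RPKM in the IP and 182 RPKM in the input, 5 of 5 erythroid markers to 696 and 1056 RPKM, 5 of 5 immune markers to 87.9 and 157 RPKM, 8 of 8 smooth muscle and fibroblast markers to 9.11 and 7.73 RPKM, and 3 of 4 endothelial markers to 2.70 and 3.99 RPKM. No listed marker was at 0 in both libraries. How many reads of the myosins came from RNA of such other cells was not tested.

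The 9 mRNAs spanned a wide range of levels and 5 of them lay at least 2-fold above the input in the IP. Those 5 were MYH9, MYH10, MYO6, MYO9B and MYO18A, on the scale of log2((IP + 1)/(input + 1)) of RPKM. None was 2-fold lower, and MYO1C, MYO1E, MYO9A and MYO10 lay within 2-fold. A mean over both libraries of 1 RPKM or more was reached by 14057 genes, of which 11.3% passed 2-fold upwards and 8.25% passed it downwards. The median log2 ratio was 1.41 over the 9 members and 0.14 over those 14057 genes. Only 7 members reached that mean, MYO9A and MYO10 being below it. Together the 9 genes took 28944 reads, or 0.491% of the IP, and 4726 reads, or 0.170% of the input, and MYH9 alone held 61.3% of these reads in the IP and 61.2% in the input.

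**Figure D1:**
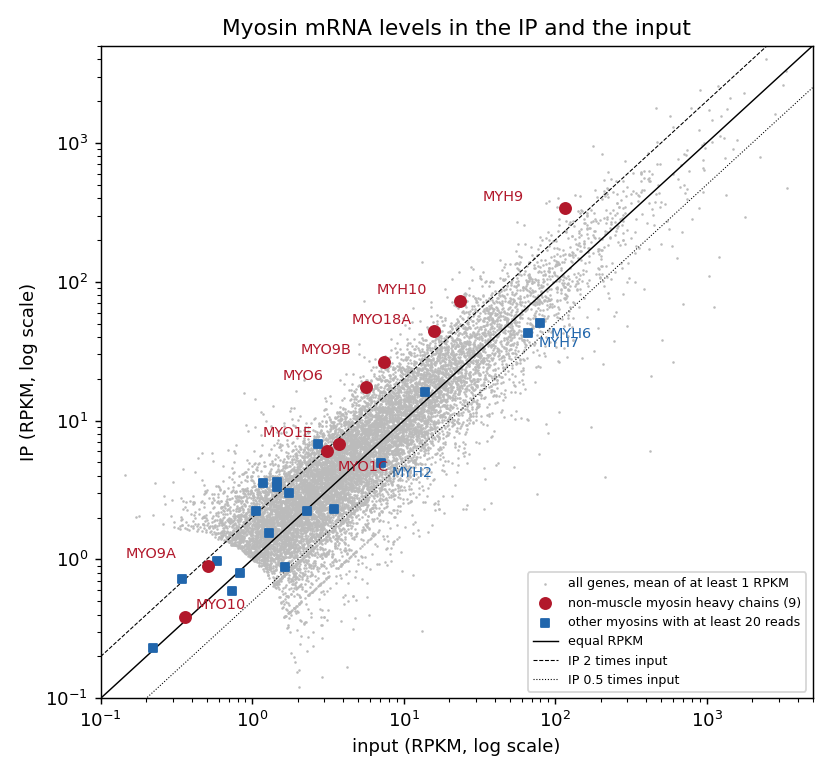
IP level (vertical axis) against input level (horizontal axis), both in RPKM on log scales, for all genes averaging 1 RPKM or more (grey; a few lie outside the axes), the 9 non-muscle myosin heavy chains (red circles) and other myosins with at least 20 reads (blue squares). MYH9, MYH10, MYO18A, MYO9B and MYO6 lie above the dashed line of 2 times the input, and MYH6 and MYH7 lie below the line of equal RPKM.

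Long genes as a class were seldom lower in the IP. The merged exons of the members ran from 7806 bases (MYO1C) to 20320 bases (MYO9A), against a median of 3712 bases over all genes that reached 1 RPKM. Among the 2213 genes within that range of lengths and with that mean, 11.0% were at least 2-fold higher and 0.678% at least 2-fold lower, with a median log2 ratio of 0.32. Among the 447 of them that averaged 10 RPKM or more, as MYH9, MYH10, MYO6, MYO9B and MYO18A did, 30.0% were at least 2-fold higher, with a median of 0.63. That mean includes the IP, and MYO6 and MYO9B, at 5.63 and 7.37 RPKM in the input, passed 10 RPKM only through the IP. Both this group and the strata by depth below are thus partly selected on the IP value. By depth, the share called 2-fold higher was 0.160% among genes of that length with at most 150 reads over both libraries, 7.33% with 300 to 500 reads and 33.8% with at least 1000 reads, strata chosen after the values were seen. The pseudocount of 1 RPKM sets much of this order, since the genes with at most 150 reads had a median of 0.345 RPKM and could hardly reach 2-fold on that scale. By the plain ratio of RPKM, with no pseudocount, the shares were 25.7%, 16.6% and 38.5%, so the share by this measure did not climb steadily with depth. With 20 to 150 reads in place of at most 150, the first of these was 17.5%. The share with an interval wholly above 2 did climb, from 1.07% to 5.87% and 29.6%. All 5 higher members were in the deepest stratum, and MYO1C and MYO1E in the middle one. Across the 9 members the ratio and the total read number had a Spearman rank correlation of 0.72, a description over 9 points from the same libraries, in which the IP reads enter both measures.

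**Figure D2:**
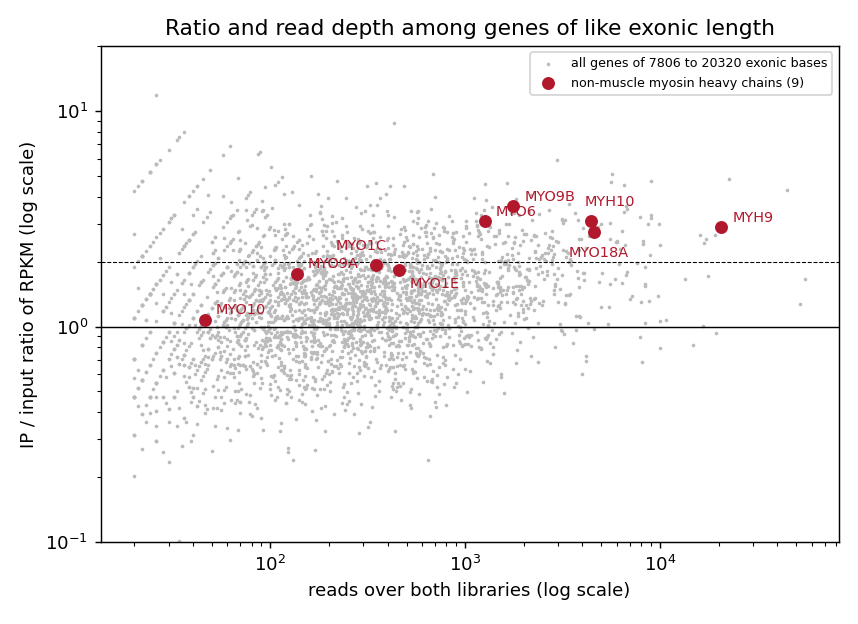
IP / input ratio of RPKM (vertical axis, log scale) against reads over both libraries (horizontal axis, log scale) for genes of 7806 to 20320 exonic bases with at least 20 reads (grey) and the 9 myosins (red). The 5 myosins with more than 1000 reads lie above the dashed line at 2, and the 4 with fewer lie between 1.08 and 1.94.

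MYH9, the heavy chain of non-muscle myosin IIA and the main contractile myosin of most non-muscle cells, was the most abundant member in both libraries. It lies on chromosome 22, 36281280 to 36387967, minus strand, in the coordinates of the deposited table. It had 17742 reads in the IP and 2893 in the input, or 338 RPKM and 117 RPKM. The ratio was 2.89 (interval 2.78 to 3.01). The microRNA gene MIR6819, which lies inside MYH9 on the same strand without sharing exon bases, had 14 reads in the IP and 2 in the input. By distance in the plane of log2 IP and log2 input RPKM over these 2 libraries, the protein-coding genes most like MYH9 were CCDC124 (distance 0.28), C19orf53 (0.29), the actin-binding caldesmon gene CALD1 (0.30) and the topoisomerase gene TOP1 (0.31).

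MYH10, the heavy chain of non-muscle myosin IIB, was about as much higher in the IP as MYH9 at a lower level. The gene (chromosome 17, 8474207 to 8630761, minus strand) had 3859 reads in the IP and 588 in the input, or 72.6 RPKM and 23.5 RPKM. The ratio was 3.10 (2.84 to 3.38), and this interval overlaps that of MYH9. MYH10 shares 72 exon bases with NDEL1 on the opposite strand, and NDEL1 was at 1.44 times its input level (1.21 to 1.72). MYH14, which encodes the heavy chain of myosin IIC and is no member, had 44 and 10 reads, 0.718 RPKM in the IP and 0.346 RPKM in the input, with a ratio of 2.08 (1.03 to 4.63).

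MYO18A, a myosin with a PDZ-containing isoform that is found at the Golgi, was the third in level. The gene (chromosome 17, 29071124 to 29180412, minus strand) had 3900 reads in the IP and 668 in the input, or 44.0 RPKM and 16.0 RPKM. The ratio was 2.75 (2.54 to 2.99). Among the 9 it alone overlaps a same-strand gene in its exons: 1394 bases are shared with TIAF1, which had 47 and 12 reads.

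MYO6, the one myosin known to move towards the pointed end of actin filaments, which serves in endocytosis and autophagy, was at a similar ratio. The gene (chromosome 6, 75749192 to 75919537, plus strand) had 1097 reads in the IP and 168 in the input, or 17.3 RPKM and 5.63 RPKM. The ratio was 3.08 (2.62 to 3.65).

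The class IX pair differed in level, and the intervals of its ratios overlapped once mates were allowed for. MYO9B (chromosome 19, 17075781 to 17214537, plus strand) had 1563 reads in the IP and 204 in the input, or 26.6 RPKM and 7.37 RPKM, and the highest ratio of the 9, 3.61 (3.12 to 4.20). MYO9A (chromosome 15, 71822291 to 72118577, minus strand) had 108 and 29 reads, or 0.901 RPKM in the IP and 0.513 RPKM in the input. Its ratio was 1.76 (1.16 to 2.75), an interval below that of MYO9B. When both read counts are halved to allow for mates, the interval of MYO9A runs from 0.970 to 3.39 and overlaps that of MYO9B, 2.94 to 4.49. Such an overlap does not show equal ratios, and the difference within the pair was not tested. On the opposite strand inside MYO9B, AC020913.1 shares 172 exon bases with it and had 143 and 14 reads, a ratio of 4.82 (2.78 to 9.04), and AC020913.2 shares 107 and had 43 and 2 reads. The library kit was stranded per the labels, but no source states whether the counting used strand, so reads in these shared bases cannot be assigned to one strand.

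The class I members, single-headed myosins that tie membranes to actin, were a little under 2 times their input level. MYO1C (chromosome 17, 1464186 to 1492686, minus strand), known for GLUT4 vesicle traffic and for a nuclear isoform, had 279 reads in the IP and 68 in the input, or 6.06 RPKM and 3.13 RPKM, a ratio of 1.94 (1.48 to 2.56). MYO1E (chromosome 15, 59132434 to 59372871, minus strand), known for clathrin-mediated endocytosis and podocyte function, had 364 and 94 reads, or 6.80 RPKM in the IP and 3.72 RPKM in the input, a ratio of 1.83 (1.45 to 2.32). The intervals of the pair overlap almost fully.

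MYO10, the myosin of filopodial tips, was the lowest member in both libraries. The gene (chromosome 5, 16661907 to 16936288, minus strand) had 32 reads in the IP and 14 in the input, or 0.388 RPKM and 0.360 RPKM. Its ratio of 1.08 had an interval from 0.559 to 2.19, which spans equality and a 2-fold difference in the IP, so no difference was detectable at this depth.

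In order of ratio the members ran MYO9B, MYH10, MYO6, MYH9, MYO18A, MYO1C, MYO1E, MYO9A and MYO10. The intervals of neighbours in this order overlapped throughout. Those of MYO18A and MYO1E, 2 places apart, did not overlap as deposited but did with halved read counts. The halved intervals were 2.45 to 3.10 for MYO18A and 1.32 to 2.57 for MYO1E. The same held for MYH9 and MYO1C, with halved intervals of 2.74 to 3.06 and 1.32 to 2.91. Other separations stayed with halved counts. The lower bounds of MYH9, MYH10 (2.74) and MYO9B (2.94) lay above the upper bound of MYO1E. The lower bound of MYO9B also lay above the upper bound of MYO1C. The interval lay wholly above 1 for 8 members and wholly above 2 for 5, against 4.06% of the 14057 genes, 9.40% of those of like length and 26.2% of those of like length at 10 RPKM or more for an interval above 2. No share over all genes is given here for an interval above or below 1, so those counts have no background beside them. With halved read counts the interval lay above 1 for 7 members and above 2 for 5. With scaling by protein-coding reads it lay above 1 for 7 members and above 2 for 3 (MYH9, MYH10 and MYO9B), the lower bounds of MYO6, MYO18A and MYO9A being 1.996, 1.94 and 0.883. Scaling decides the size of all these ratios. They are multiplied by 0.886 after centring on the median of all genes, by 0.763 when libraries are scaled by their protein-coding reads and by 2.39 when both are given an equal RPKM sum. MYO10, at 1.08 as deposited, then stands at 0.955, 0.823 and 2.58, and so changes side of 1.

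**Figure D3:**
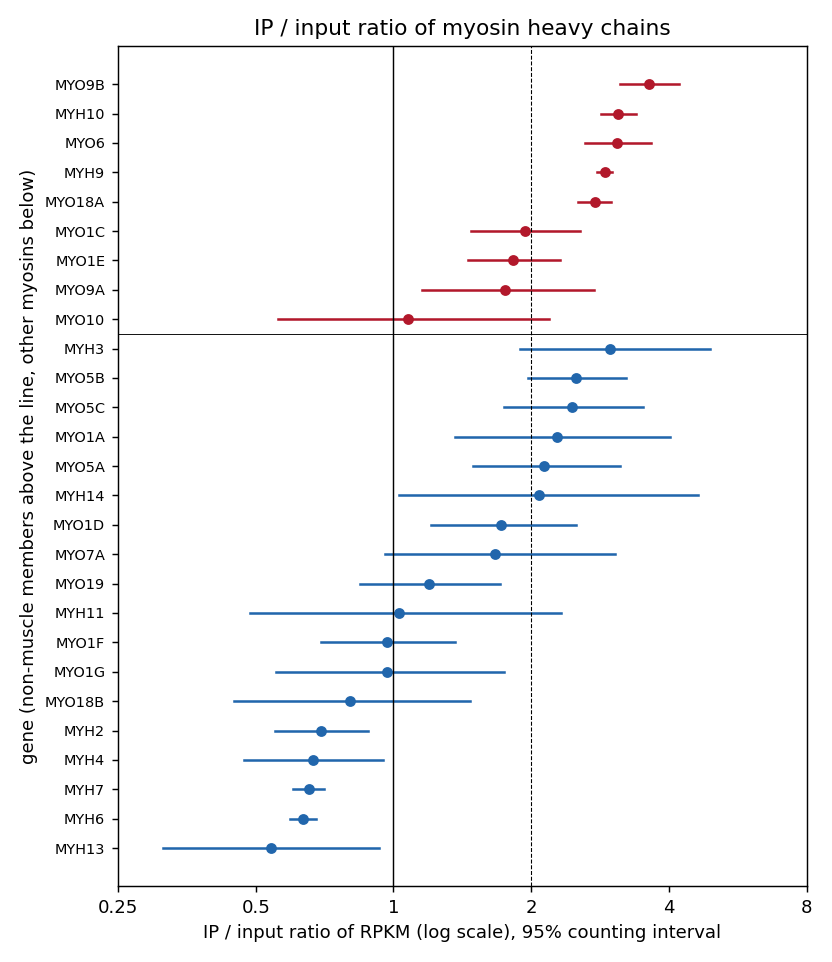
IP / input ratio of RPKM (horizontal axis, log scale) with its 95% counting interval (line) for the 9 non-muscle members (red, above the line) and other myosins with at least 20 reads (blue, below; 1 of the 19 is not shown). The solid vertical line marks 1 and the dashed one 2. The intervals of 5 members lie wholly above 2, and those of MYH2, MYH4, MYH6, MYH7 and MYH13 lie wholly below 1.

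The deposited peak list placed 48 of its 7643 IP peaks on exons of 7 of the 9 members. In the authors' deposited table, the peaks carried folds between 2.08 and 6.32 with a median of 2.44, against a median of 2.71 over all peaks, and 6 of the 48 had a false discovery rate above 0.05. MYH9 carried 17 peaks, the 12th highest number of any gene in the table, MYO9B 11, MYO18A 10, MYH10 6, MYO1E 2 and MYO1C and MYO6 1 each. MYO9A and MYO10 carried 0. The only peak on MYO1C had a false discovery rate of 0.0695 in the authors' deposited table, so at a rate of at most 0.05 only 6 members carried a peak. Of the 14057 genes, 21.5% carried a peak, as did 47.4% of those of like length and 69.6% of those of like length at 10 RPKM or more. Of genes within the length range of the members, 2.82% did with at most 150 reads over both libraries, 52.6% with 300 to 500 reads and 74.6% with at least 1000 reads. MYO9A and MYO10 have 137 and 46 reads, so their lack of peaks lies where few genes had any. No source states how the authors scaled these folds, and they cannot be set against the RPKM ratios as a size.

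The peaks covered much of the exons of MYO9B and MYH9 and little of MYO6 and class I. Covered were 4977 of 9948 exon bases of MYO9B, 48.5% of those of MYH9, 41.6% of MYH10, 26.8% of MYO18A, 4.44% of MYO6, 3.88% of MYO1E and 2.25% of MYO1C. Among the 311 genes of like length that averaged 10 RPKM or more and had a peak, the median covered share was 9.10%. MYO6 stands apart from the other higher members here. Its ratio was close to that of MYH10, yet it had a single peak of 476 exon bases over 4 merged exons (chromosome 6, 75886970 to 75892692, fold 2.87 in the authors' deposited table). MYO6 had 1265 reads over both libraries, the fewest of the 5, against 4447 for MYH10 and 1767 for MYO9B. Of its 10727 exon bases, 4725 lie in the last merged exon. Whether depth or exon layout sets its low coverage was not tested.

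The position of the peaks along the mRNA differed between the class II paralogs. On MYH9 the first began 115 bases from the 5′ end of the merged exons, with a false discovery rate of 0.0709 in the authors' deposited table, and the first with a rate of at most 0.05 began at base 640. All MYH9 peaks together covered 34.1% of the 5′ part, 67.2% of the middle part and 44.0% of the 3′ part, in 3 parts of equal length. On MYH10 0% of the 5′ part was covered and the first peak began at base 3299, with 75.4% of the middle and 49.3% of the 3′ part covered. The longest single peak of each gene lay in overlapping stretches, from base 3948 to 5282 on MYH9 (1335 exon bases over 7 merged exons) and from base 3299 to 4963 on MYH10 (1665 over 10 merged exons). MYH10 had 4447 reads over both libraries and MYH9 20635, so the bare 5′ part of MYH10 is not shown to be free of enrichment. MYO18A had 24.6%, 55.9% and 0% of its 3 parts covered from 5′ to 3′, and MYO9B 56.2%, 64.0% and 29.9%.

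**Figure D4:**
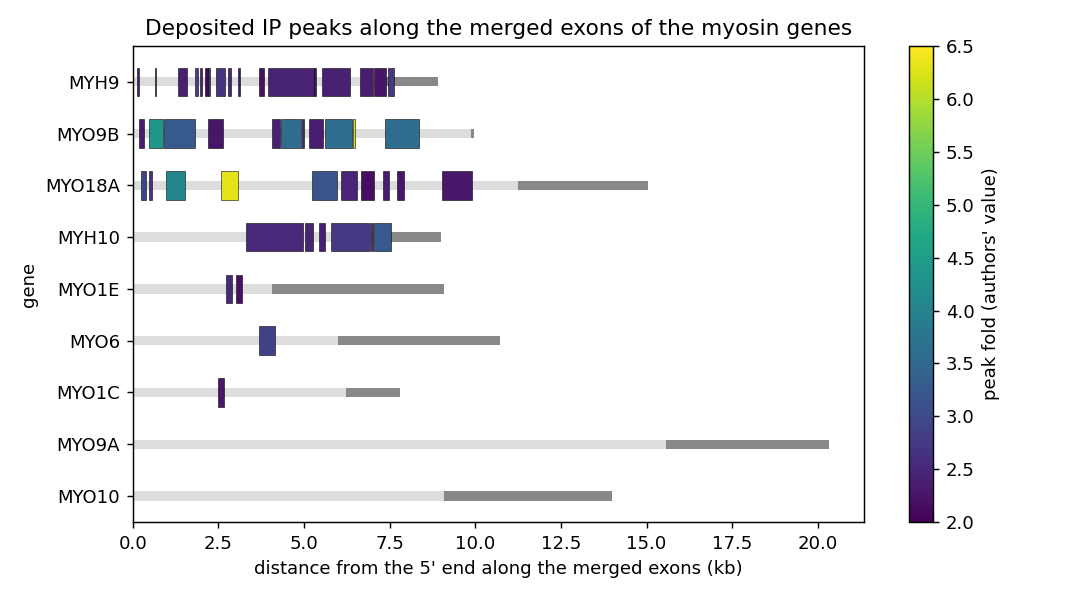
Deposited peaks (boxes, coloured by the authors' fold) along the merged exons of each member (grey bars), by distance from the 5′ end in kb; the dark part of a bar is the last merged exon. Peaks spread along MYH9 and MYO9B, leave the 3′ part of MYO18A bare, start beyond 3 kb on MYH10, and are few on MYO1E, MYO6 and MYO1C; MYO9A and MYO10 have none.

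The last exon, which holds most or all of the 3′ untranslated region in most genes, was nearly free of peaks. Of the 48 peaks, 2 were centred in the last merged exon, 1 each on MYH9 and MYH10, or 4.17%, against 19.1% of all deposited peaks. Over the 7 members with a peak, peaks covered 2.41% of 18432 bases of last exons and 33.9% of the other exon bases. The covered part was 11.7% of the last exon of MYH9 (1506 bases) and 15.4% of that of MYH10 (1742 bases), and 0% of those of MYO18A (3791 bases), MYO6 (4725 bases), MYO1E (5023 bases), MYO1C (1567 bases) and MYO9B, whose last merged exon holds only 78 bases. Among the 311 genes of like length above, the median was 0% of the last exon and 11.9% of the others, so the members share this pattern with other long genes. Merged exons combine all listed transcripts, and no annotation of coding and untranslated parts was used here.

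The highest folds were at single peaks of MYO18A and MYO9B. In the authors' deposited table, the peak with the highest fold lay on MYO18A (chromosome 17, 29121650 to 29125938, 478 exon bases, fold 6.32), followed by one on MYO9B (chromosome 19, 17202196 to 17202246, 51 bases, fold 6.24), which had a false discovery rate of 0.0760. The lowest fold, 2.08, lay on MYH9 (chromosome 22, 36314302 to 36316575). Of the 48 peaks, 10 had a fold of at least 3, or 20.8%, against 37.0% of all peaks. All 17 peaks on MYH9 were below 3.

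One peak of MYO18A reaches an internal transcription start that RefSeq annotates, and the sequence of that start window is shown because it is where a member's enriched region and its start-site sequence meet. The RefSeq table of GRCh38.p14 held 14 start-site windows for the 9 members, of 250 bases before to 50 bases after a start, and 1 of them shared exon bases with a peak. The build of the deposited coordinates is not named in the sources used here. The spans of 4 members were equal to those of GRCh38.p14 at both ends and those of 6 at 1 end or more. In chr17:29140340-29140639 (GRCh38.p14, minus strand, read 5′ to 3′), capitals mark the 49 exon bases that lie in the peak at 29140374 to 29166322 (fold 4.06 in the authors' deposited table).
MYO18A internal start: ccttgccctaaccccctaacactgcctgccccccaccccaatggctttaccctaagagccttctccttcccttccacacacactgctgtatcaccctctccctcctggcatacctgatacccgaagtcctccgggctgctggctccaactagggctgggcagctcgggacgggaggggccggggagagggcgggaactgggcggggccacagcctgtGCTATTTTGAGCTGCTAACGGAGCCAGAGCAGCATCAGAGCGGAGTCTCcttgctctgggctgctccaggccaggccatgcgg
The capitals begin before the annotated start, since the merged exon in the deposited table extends upstream of it. Both strands of the window were searched for spellings of an element known for SRSF7 and for a common form of the m6A consensus, with 35116 windows of the same length as background. GACGAC was absent here and held by 4.56% of all windows. GACGAT was absent and held by 2.28%. GATGAC was absent and held by 9.14%, and the last SRSF7 spelling, GATGAT, was absent and held by 7.35%. The m6A form GGACT was found 1 time, on the opposite strand, and was held by 44.2% of all windows. A match or its lack in this window describes these letters only.

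The other myosins went both ways, and 5 heavy chains of striated muscle had intervals below 1 as deposited. Of 29 other myosin genes listed, 25 were in the table, with a median log2 ratio of 0.10, 2 at least 2-fold higher (MYH3 and MYO5B) and 0 lower. Of all genes with no filter on level, 8.40% were at least 2-fold higher, a share near that of this list. That median includes genes with few reads and turns to -0.04 after centring and to -0.03 with protein-coding scaling. Over the 14 that averaged 1 RPKM or more it was 0.18, against 0.14 over the 14057 genes with that mean. Among the 19 with at least 20 reads, the interval lay wholly above 1 for 8 and wholly below 1 for 5. No share over all genes stands beside these counts. With halved read counts only MYH6, MYH7 and MYH2 of those 5 kept an interval below 1, with upper bounds of 0.695, 0.730 and 0.975. The class V cargo motors were above 1, with MYO5B at 2.51 (1.97 to 3.22), MYO5C at 2.45 (1.75 to 3.51) and MYO5A at 2.14 from 172 reads in the IP and 38 in the input. MYO5B overlaps a same-strand gene in its exons.

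The 5 myosins whose intervals lay below 1 were all sarcomeric chains. MYH6, the alpha cardiac heavy chain, had 2164 reads in the IP and 1612 in the input, or 50.4 RPKM and 79.6 RPKM, a ratio of 0.633 (0.593 to 0.676). MYH7, the beta cardiac chain, had 1530 and 1105 reads, or 43.0 RPKM in the IP and 65.9 RPKM in the input, a ratio of 0.653 (0.604 to 0.706). The fast skeletal chain MYH2 was at 0.696 (0.552 to 0.880). MYH4, also a fast skeletal chain, was at 0.667 from 82 reads in the IP and 58 in the input, and MYH13, known from extraocular muscle, was lowest at 0.539 (0.314 to 0.929). With halved read counts the upper bounds of MYH4 and MYH13 reach 1.11 and 1.19. All 5 turn above 1 with an equal RPKM sum, where the median log2 ratio of all genes becomes 1.14. MYH6 and MYH7 are adjacent and nearly identical, so their reads may be split between them. In input RPKM, MYH6 and MYH7 exceeded every member but MYH9, in cells labelled as a hepatoma line. The erythroid gene HBB stood at a like ratio, 0.633 (0.602 to 0.666). MYH3, the embryonic skeletal chain, was above 1, with 139 and 22 reads, a ratio of 2.98 (1.89 to 4.91) and 1 peak.

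Light chains, which stiffen the neck of the myosin heads and regulate class II filaments, were not higher with the heavy chains. Of 14 measured genes, 0 were at least 2-fold higher and 1 was lower, the cardiac MYL2 with 4 reads in the IP and 8 in the input. The median log2 ratio was -0.16. Of the 14057 genes with a mean of 1 RPKM or more, 11.3% were at least 2-fold higher and 8.25% lower. In a list of 14 genes, counts of 0 and 1 are near these shares. MYL12A and MYL12B, the regulatory light chains of non-muscle myosin II, were at 0.606 (0.557 to 0.658) and 0.730 (0.662 to 0.805). MYL6, the essential light chain, had 5669 and 3050 reads and a ratio of 0.877 (0.839 to 0.917). These 3 turn to 1.45, 1.75 and 2.10 with an equal RPKM sum, and stay below 1 with the other scalings. CALM2, one of the calmodulin genes that serve as light chains of unconventional myosins, was at 0.549 (0.521 to 0.579), and MYL5 was the highest at 2.02 (1.69 to 2.42). MYL6 and CALM2 overlap same-strand genes in their exons. Genes from 2000 to under 4000 exonic bases had a median log2 ratio of 0.09 and genes under 2000 of -0.05, and MYL12A and MYL12B measure 3032 and 1738 bases.

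The medians of genes that act on the myosins or on the same filaments lay between those of the members and of the other myosins, except that with protein-coding scaling the median of the cargo adaptors, -0.07, was below that of the other myosins, -0.03. Of 26 genes listed as kinases and phosphatase of the regulatory light chain, 6 were at least 2-fold higher and 0 lower, with a median log2 ratio of 0.43. That list also holds the GTPase genes RHOA, RHOB and RHOC and the exchange factor genes ECT2, ARHGEF2, ARHGEF11 and ARHGEF12. Its count and median are thus not of kinases and phosphatase subunits alone. PPP1R12A, the targeting subunit of myosin phosphatase, was at 2.48 (2.25 to 2.75), while PPP1CB, its catalytic subunit, was lowest at 0.671 (0.574 to 0.784). CDC42BPG had the highest ratio, 5.19, from 22 and 2 reads (1.28 to 45.5). Among 25 cargo adaptors and partners, 3 were at least 2-fold higher and 0 lower, with a median of 0.26 (-0.07 with protein-coding scaling). These were SEPTIN9 at 2.79 (2.46 to 3.18) and the MYO6 adaptors TOM1 at 2.92 (2.22 to 3.91) and GIPC1 at 2.37 (1.78 to 3.19), whereas OPTN and TAX1BP1, autophagy receptors that also bind MYO6, were at 1.15 (1.01 to 1.32) and 1.04 (0.952 to 1.13), and both turn below 1 with protein-coding scaling. The ends of that list by ratio were TOM1L2 at 2.96 (1.56 to 6.20) and S100A4 at 0.539 (0.247 to 1.19). Of 24 actin cross-linkers and tropomyosins, 6 were at least 2-fold higher and 0 lower, with a median of 0.60, from PLS1 at 0.584 (0.381 to 0.899) to CALD1 at 2.66 (2.56 to 2.77). Genes that link filaments to membranes or adhesions, such as EZR and VCL, are counted in it too. These lists include genes below a mean of 1 RPKM. Over all genes, 8.40% were at least 2-fold higher with no filter and 11.3% at that mean or more, so the count for the cargo adaptors was near these shares.

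**Figure D5:**
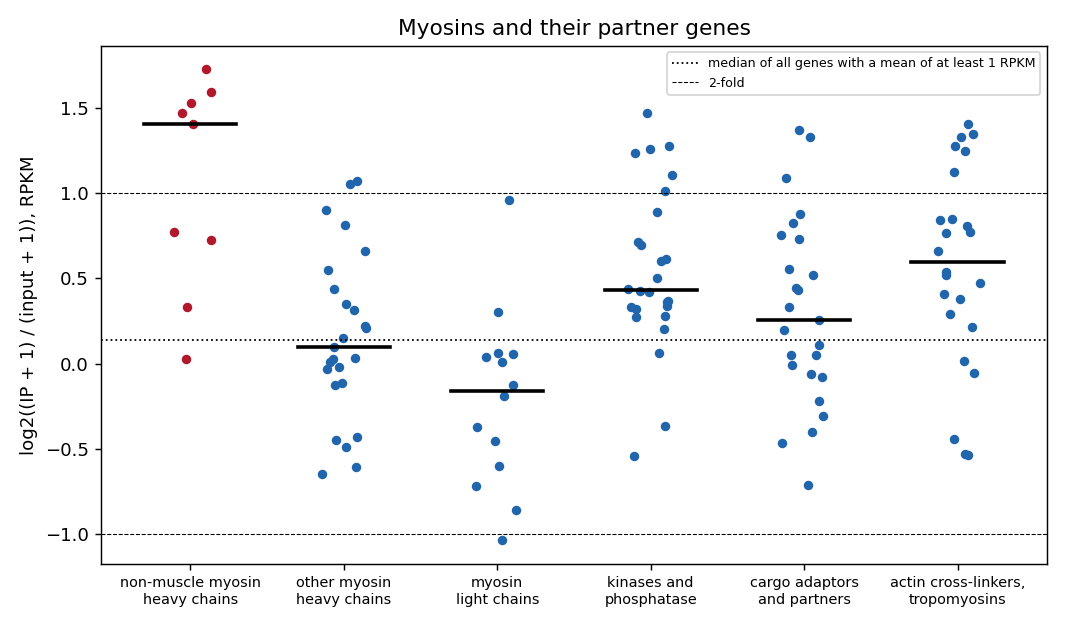
log2((IP + 1)/(input + 1)) of RPKM (vertical axis) for each gene (point) of the 9 non-muscle myosin heavy chains and of 5 lists of related genes, with the median as a bar. The dotted line is the median of the 14057 genes (0.14) and the dashed lines mark 2-fold. The medians are 1.41 for the members, 0.10 for other myosins and -0.16 for light chains.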

How the data were processed

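RNA of 1 IP and 1 input library was analysed, grouped by their titles. The submitters' processing notes name Trimmomatic and STAR 2.5.3a. Per the labels' protocols the library kit was stranded and used molecular tags against PCR duplicates. Counter, annotation, genome build and peak caller: not given in the sources used here. RPKM values per gene were deposited by the authors, a unit read from the values, as the header names none. Their peak list holds, per the file headers, a fold ratio, a score, a p-value and the false discovery rate of each peak. RPKM values were whole multiples of 1 read within 0.01 of a read for 100% of values, which gave the depths (5897293 and 2782045 reads). The deposited peak score was not used.

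Ratios are IP over input RPKM with an exact (Clopper-Pearson) 95% interval of the count ratio. Calls used a pseudocount of 1 RPKM. Each peak went to the same-strand gene whose exons it overlapped most, by 1 base or more. The interval code was tested on simulated counts. No test or count model was run, with 1 library per group. Members and lists were chosen with earlier results of these data known. Named genes were all members, in each list the highest and lowest ratio with at least 20 reads and 2-fold genes of lists with 5 or fewer, the 4 genes nearest MYH9, and the extreme peaks. Other named genes were chosen after their values were seen. For 1 listed gene no values are reported here. Motifs in peaks and mRNA parts were not analysed here, since no genome was used. Software was scipy 1.17.1, pandas 2.3.3, numpy 2.4.6 and matplotlib 3.10.9 under Python 3.11.15.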

Additional observations from a re-analysis of the deposited data

How the results depend on the processing

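The number of members at least 2-fold higher was 5 with pseudocounts of 0.1 and 0.5, after centring and with protein-coding scaling, and 7 with an equal RPKM sum. The number with an interval wholly above 2 was 5 as deposited, after centring and with halved counts, 3 with protein-coding scaling and 8 with an equal RPKM sum, which were counted after seeing the data. The share of all genes at least 2-fold higher was 8.40% with no filter and 12.7% at a mean of at least 5 RPKM. The median log2 ratio of the members lay between 1.04 and 1.46 under the alternatives tried, apart from 2.61 with an equal RPKM sum, where the median of all genes was 1.14, and was 1.12 without MYO18A, which shares exon bases with TIAF1. Of the 48 peaks, 42 had a false discovery rate of at most 0.05, 10 a fold of at least 3, and 48 had at least 50% of their exonic bases on the member. The last of these counts could hardly differ, since each peak went to the gene it overlapped most. Joining peaks at most 25 bases apart, an alternative chosen after seeing the data, left 40. The planned 200-base motif window was not run, since no genome was used. No paired analysis was possible because each group has 1 library. Depth limits MYO10 and MYO9A most, with 46 and 137 reads.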
